A study of Danio rerio with 12 samples.

Results

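The liver and gut miRNAs of zebrafish are represented here by the hairpins mir-122, mir-192, mir-194a and mir-194b. They were chosen by name, with both arms of each hairpin, which gave 8 of the 464 miRNA features in the count tables. The libraries held small RNA of whole embryos of the TL wild type strain at 36 or 60 hours post fertilisation (hpf), sequenced on a SOLiD instrument. Each age had 3 libraries from embryos given TCDD, a dioxin and ligand of the aryl hydrocarbon receptor, and 3 from embryos given the solvent DMSO, so the 4 groups held 12 libraries. The labels name neither a dose nor a duration of exposure, and every group was of this single strain with no allele named. Nothing in the labels says whether libraries of a group came from separate clutches. The p-values therefore weigh differences between groups against a spread between libraries that may be technical.

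miR-122 is the dominant miRNA of the vertebrate liver, where it is made in hepatocytes and acts on genes of lipid metabolism. miR-192 and miR-194 are miRNAs of the intestinal epithelium in mammals, with expression also in liver and kidney, and in many vertebrates they are made from shared clusters. Both the liver and the gut of the zebrafish are still forming between the ages sampled. In the RefSeq gene table (assembly GRCz12tu) mir192 and mir194a were direct neighbours, with ehd1b as the next gene, and mir194b lay beside ehd1a. No coordinates are printed, because no source used here names the build behind the counts. An miRNA hairpin gives a pair of mature arms. The deposited names mark one of them with a star and leave the other plain, and this naming is kept below.

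Depth was 459634 to 4210840 miRNA counts per library, lowest in 36 hpf TCDD replicate 3 and highest in 60 hpf TCDD replicate 3. It differed with age, at 459634 to 3557670 counts in libraries of 36 hpf and 2007639 to 4210840 in those of 60 hpf. Levels are given in CPM, counts as a share of the miRNA counts of the library, scaled between libraries by TMM factors, and were not divided by length because mature miRNAs are of similar length. The samples are whole embryos, so a change in the share of liver or gut cells and a change of the miRNA per cell cannot be told apart.

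In all libraries together miR-192 was the most abundant arm of these hairpins, with 61881 counts and a mean of 1865 CPM, rank 90 of 464 features. miR-122 followed with 8759 counts and 215 CPM, rank 176, and its star arm miR-122* with 2748 counts and 73.5 CPM. miR-194a had 1094 counts and miR-194b* 623 counts, at means of 34.2 and 18.2 CPM. The remaining arms were rare. miR-192* had 119 counts, miR-194a* 91 and miR-194b 54, and these 3 arms did not pass the filter on low counts. The other 5 arms passed it and were tested among 410 miRNAs.

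From 36 to 60 hpf the miR-122 star arm rose in embryos of both treatments. In DMSO embryos miR-192 and miR-194a passed the test as higher at 60 hpf, and in TCDD embryos miR-194b* did. The plain arm of miR-122 was higher in value at 60 hpf by a similar or larger amount, but its libraries varied widely and it passed in neither treatment alone. TCDD and DMSO embryos of the same age did not differ past the threshold in any arm that was tested.

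**Figure D1:**
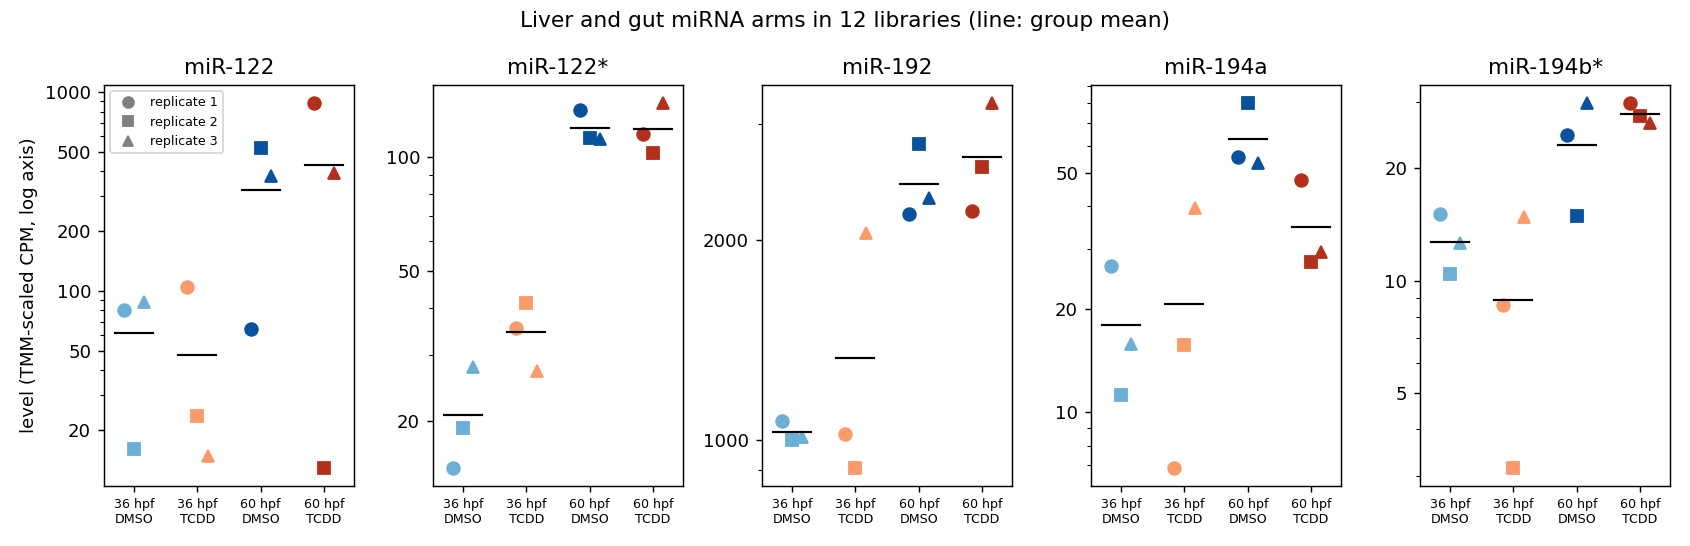
Level of each tested arm in every library, in TMM-scaled CPM on log axes that differ between panels. Points are libraries, with their shape giving the replicate number, and lines are means of 3 libraries. miR-122* and miR-192 were higher in all 6 libraries of 60 hpf than in the 6 libraries of 36 hpf, while miR-122 ranged from 12.97 to 882 CPM within the TCDD group of 60 hpf.

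The arm miR-122* showed the change of age most evenly. At 36 hpf it stood at 15.1, 19.3 and 27.9 CPM in DMSO replicates 1, 2 and 3, and at 35.4, 41.1 and 27.2 CPM in TCDD replicates 1, 2 and 3. At 60 hpf it stood at 133.6, 112.7 and 112.2 CPM in the DMSO libraries and at 115.2, 102.9 and 139.2 CPM in the TCDD libraries. The lowest library of 60 hpf thus lay well above the highest of 36 hpf. In DMSO embryos the mean went from 20.8 ± 6.52 to 119.5 ± 12.2 CPM (SD, n = 3 per group), a log2 difference of 2.50 (SE 0.33, adjusted p by edgeR = 0.00054), or 5.64-fold. In TCDD embryos it went from 34.5 ± 6.97 to 119.1 ± 18.5 CPM, a log2 difference of 1.78 (SE 0.32, adjusted p by edgeR = 0.0039). It passed in both treatments under each of the 16 alternative settings run for either, with values from 2.17 to 2.74 in DMSO and 1.51 to 2.24 in TCDD embryos.

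The plain arm miR-122, the arm for which the liver miRNA is best known, had the largest spread of the 5 tested arms. In DMSO embryos it stood at 80.6, 16.04 and 87.8 CPM at 36 hpf and at 64.8, 525 and 378 CPM at 60 hpf. In TCDD embryos it stood at 104.4, 23.7 and 14.8 CPM at 36 hpf and at 882, 12.97 and 392 CPM at 60 hpf. The ages overlapped in both treatments, and 60 hpf TCDD replicate 2, with 32 counts out of 2007639 miRNA counts, was the lowest of all 12 libraries. The log2 difference from 36 to 60 hpf was 2.39 (SE 1.28, adjusted p by edgeR = 0.228) in DMSO and 3.13 (SE 1.32, adjusted p by edgeR = 0.120) in TCDD embryos. Without 60 hpf TCDD replicate 2 the value in TCDD embryos was 3.74 and passed (adjusted p by edgeR = 0.0441). It was 2.06 without 60 hpf TCDD replicate 1 (adjusted p by edgeR = 0.338) and 4.41 without 36 hpf TCDD replicate 1 (adjusted p by edgeR = 0.10), neither past the threshold. With the replicate block within TCDD libraries it was 2.47 (adjusted p by edgeR = 0.211). DESeq2 passed it with all libraries kept, at 3.18 (DESeq2 adjusted p = 0.0188).

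miR-192, the intestinal miRNA, was close to 1000 CPM in 5 of the 6 libraries of 36 hpf. It stood at 1069, 1000 and 1011 CPM in the DMSO libraries of that age and at 1019, 908 and 2054 CPM in the TCDD libraries, with 36 hpf TCDD replicate 3 apart. At 60 hpf it stood at 2193, 2793 and 2317 CPM in DMSO and 2216, 2580 and 3224 CPM in TCDD embryos. The ages did not overlap in either treatment. The means of the DMSO groups were 1027 ± 37.0 and 2435 ± 317 CPM (SD, n = 3 per group), a log2 difference of 1.25 (SE 0.34, adjusted p by edgeR = 0.0245). That call held without 60 hpf DMSO replicate 1 but ended without any other of the 6 libraries. The adjusted p was then 0.0952, 0.107 and 0.0718 without DMSO replicates 1, 2 and 3 of 36 hpf, and 0.0824 and 0.0530 without DMSO replicates 2 and 3 of 60 hpf. In TCDD embryos the means were 1327 ± 632 and 2673 ± 510 CPM, a log2 difference of 1.01 (SE 0.34, adjusted p by edgeR = 0.0550). Without 36 hpf TCDD replicate 3 this was 1.45 and passed (adjusted p by edgeR = 0.00668). It also passed in a fit with a replicate block that joined same-numbered TCDD libraries across the ages (1.09, adjusted p = 0.0181). Of the 16 alternatives it passed under 6, among them DESeq2 (DESeq2 adjusted p = 0.0147) and scaling by total counts (adjusted p by edgeR = 0.00973). Under the other 10 it did not pass, with an adjusted p of up to 0.237.

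miR-194a, the neighbour of miR-192 in the genome, stood at 26.9, 11.2 and 15.9 CPM in DMSO embryos of 36 hpf and at 55.6, 80.1 and 53.5 CPM in those of 60 hpf, with no overlap. The log2 difference was 1.84 (SE 0.57, adjusted p by edgeR = 0.0455), and it stayed between 1.52 and 2.06 under 16 alternatives, but 13 of these ended the call. Without DMSO replicates 1, 2 and 3 of 36 hpf the edgeR adjusted p was 0.0797, 0.178 and 0.142, and without those of 60 hpf it was 0.0779, 0.122 and 0.0720. In TCDD embryos miR-194a stood at 6.90, 15.8 and 39.6 CPM at 36 hpf and at 47.8, 27.6 and 29.4 CPM at 60 hpf. These groups overlapped, through 36 hpf TCDD replicate 3, which held 16 counts. The log2 difference was 0.84 (SE 0.58, adjusted p by edgeR = 0.332), and leaving out 1 library moved it between 0.33, without 36 hpf TCDD replicate 1, and 1.64, without 36 hpf TCDD replicate 3. It passed in neither case (adjusted p by edgeR = 0.715 and 0.0702).

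The paralog miR-194b was read from its star arm. Reads that fit arms of both paralogs could be split between them by the authors' counting, so the values of miR-194a and miR-194b are uncertain to that extent. miR-194b* stood at 15.1, 10.4 and 12.6 CPM in DMSO embryos of 36 hpf and at 24.6, 14.9 and 29.8 CPM in those of 60 hpf. These groups overlapped narrowly, and the log2 difference of 0.88 (SE 0.43, adjusted p by edgeR = 0.203) did not pass. In TCDD embryos it stood at 8.62, 3.16 and 14.8 CPM at 36 hpf, from 10, 2 and 6 counts, and at 29.8, 27.6 and 26.4 CPM at 60 hpf, with no overlap. The log2 difference was 1.71 (SE 0.47, adjusted p by edgeR = 0.0255). That call ended under 5 of 16 alternatives. These were the loss of 36 hpf TCDD replicate 1 or 2 (adjusted p by edgeR = 0.0663 and 0.0631) and of 60 hpf TCDD replicate 1 or 2 (0.0560 and 0.0513). The fifth was the loss of both TCDD libraries numbered 2, with a value of 1.35 (adjusted p by edgeR = 0.118).

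**Figure D2:**
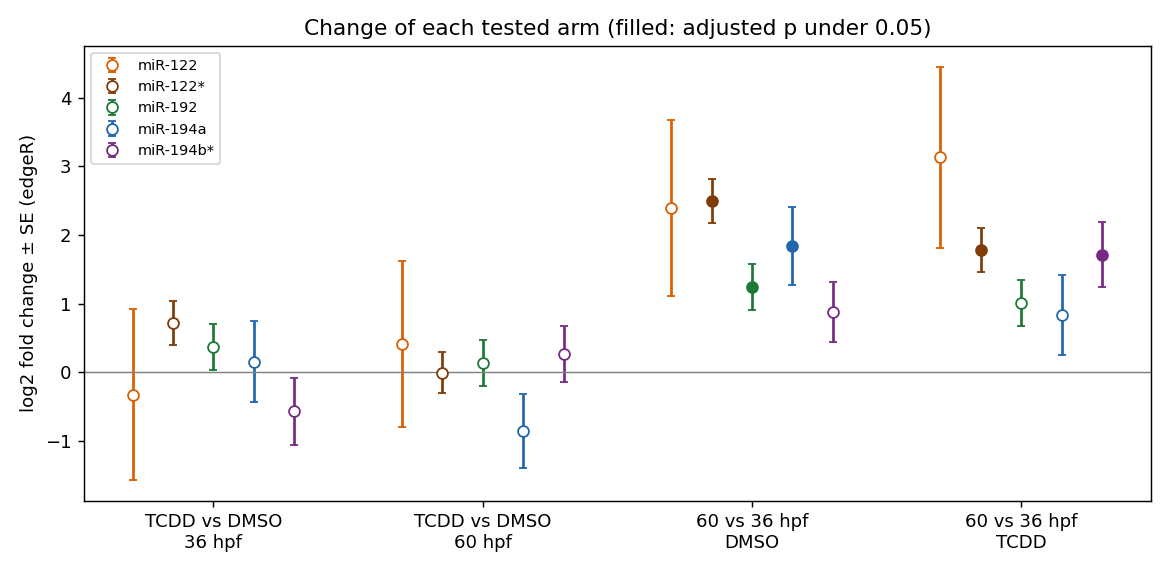
Log2 fold change of the 5 tested arms in 4 comparisons, with bars of 1 SE from edgeR. Filled points have an adjusted p under 0.05. All points of the comparisons of age lie above 0, from 0.84 to 3.13, and no point of the comparisons of TCDD with DMSO is filled.

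In DMSO embryos 3 of the 5 tested arms rose with age and 0 fell, beside 12.7% of all 410 tested miRNAs that rose. Their median log2 difference was 1.84, beside 0.08 over all tested miRNAs. The 3 arms whose ages did not overlap (miR-122*, miR-192 and miR-194a) stand beside 25.4% of all tested miRNAs that were higher without overlap. In TCDD embryos 2 of the 5 rose, again beside 12.7% of all tested miRNAs, with a median of 1.71 beside 0.08. There the arms higher without overlap were miR-122*, miR-192 and miR-194b*, beside 22.9% of all tested miRNAs. With so few arms these shares are a description. Scaling by total counts raised the median of all miRNAs to 0.20 in DMSO and 0.54 in TCDD embryos.

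Averaged over both treatments in the same fit, a contrast added after the single ones had been seen, all 5 tested arms were higher at 60 hpf, beside 21% of all tested miRNAs. The log2 differences were 2.76 (SE 0.92) for miR-122, 2.14 (SE 0.23) for miR-122*, 1.13 (SE 0.24) for miR-192, 1.34 (SE 0.40) for miR-194a and 1.29 (SE 0.32) for miR-194b*. Their edgeR adjusted p-values were 0.0392, 5.84e-05, 0.00387, 0.0250 and 0.00971. The calls of miR-122*, miR-192 and miR-194b* held under all 22 alternatives run. That of miR-122 ended under 11 of the 22, with an adjusted p by edgeR of up to 0.112, in a setting not listed here. The replicate block of TCDD libraries was among the 11 (adjusted p = 0.0550). The call of miR-122 also ended without DMSO replicates 1, 2 and 3 of 36 hpf (0.0704, 0.0798 and 0.0608), TCDD replicates 2 and 3 of 36 hpf (0.0832 and 0.0835), DMSO replicates 2 and 3 of 60 hpf (0.0798 and 0.0672) or TCDD replicates 1 and 3 of 60 hpf (0.0944 and 0.0574). For miR-194a 6 of 22 ended it. These were the loss of 36 hpf DMSO replicate 2 or 3 (0.0706 and 0.0599), 36 hpf TCDD replicate 2 (0.0669), 60 hpf DMSO replicate 2 (0.0573), 60 hpf TCDD replicate 1 (0.0511) or both TCDD libraries numbered 2 (0.0815).

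Whether the arms rose by different amounts was tested on the log2 ratio of each pair within a library. Scaling cancels in this ratio except through a prior count, set to 1 and adjusted to library size, which shrinks ratios of low counts. Times were permuted within each treatment (exact permutation test, two-sided, 400 relabellings, smallest possible p = 0.005), and 10 pairs were compared. The ratio of miR-122* to miR-192 was 0.997 higher on the log2 scale at 60 hpf, at -4.41 ± 0.24 against -5.41 ± 0.71 (SD, n = 6 each; exact permutation p = 0.015, adjusted over the 10 pairs 0.15). The other 9 pairs had exact p-values from 0.155 to 0.92, so no pair was shown to differ. A single pair at the smallest possible p would have an adjusted p of 0.05, which is not under the threshold, so no pair could pass on its own. The permutation did not keep same-numbered TCDD libraries together, although their deviations correlated across the ages. The ratio of the neighbours miR-192 and miR-194a changed by -0.28 (exact permutation p = 0.42), from 6.05 ± 0.64 to 5.77 ± 0.69 on the log2 scale (SD, n = 6 each). The ratio of miR-194a to miR-194b* changed by 0.12 (exact permutation p = 0.83).

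TCDD was compared with DMSO at each age. At 36 hpf 0 of the 5 tested arms passed edgeR's quasi-likelihood test, as for 0% of all tested miRNAs (17 of 410 had an unadjusted p under 0.05), and DESeq2 also called 0 of 410. Unadjusted p was under 0.05 for 1 arm, miR-122*, whose mean was 34.5 ± 6.97 CPM with TCDD against 20.8 ± 6.52 CPM with DMSO (SD, n = 3 per group), a log2 difference of 0.71 (SE 0.32, adjusted p by edgeR = 0.996). Its groups overlapped, as the lowest TCDD library, at 27.2 CPM, lay below the highest DMSO library, at 27.9 CPM. The other values at 36 hpf were -0.32 (SE 1.24) for miR-122, 0.37 (SE 0.33) for miR-192, 0.16 (SE 0.60) for miR-194a and -0.56 (SE 0.49) for miR-194b*. Signs turned without 1 library for 3 of them. Without 36 hpf TCDD replicate 3 miR-192 was at -0.13 and miR-194a at -0.69, without 36 hpf DMSO replicate 2 miR-194a was at -0.12, and without 36 hpf DMSO replicate 3 miR-122 was at 0.05. Without 36 hpf TCDD replicate 1 miR-122 was at -1.66.

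At 60 hpf 0 of the 5 arms passed, beside 0.244% of all tested miRNAs (1 of 410). DESeq2 called 0 of the 5, and 0 had an unadjusted edgeR p under 0.05. miR-122* had nearly the same mean in both groups, with a log2 difference of 0.00 (SE 0.30) and an interval of 2 SE from -0.61 to 0.60. For miR-192 the value was 0.13 (SE 0.33, interval -0.53 to 0.80), and for miR-194b* it was 0.27 (SE 0.41, interval -0.55 to 1.09). The interval of miR-122 ran from -2.0 to 2.83 around 0.41 (SE 1.21), and its value was -0.67 without 60 hpf TCDD replicate 1 and -0.07 without 60 hpf DMSO replicate 1. Without 60 hpf TCDD replicate 3 miR-192 was at -0.02. miR-194a was lower in value in every TCDD library than in every DMSO library, at 34.9 ± 11.2 against 63.1 ± 14.8 CPM (SD, n = 3 per group). Its log2 difference was -0.85 (SE 0.54, adjusted p by edgeR = 0.870), and 10.7% of all tested miRNAs were likewise lower without overlap.

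An interaction of TCDD with age passed for 0 of the 5 arms and for 0% of all tested miRNAs by edgeR, with 0 arms at an unadjusted p under 0.05 and 0 called by DESeq2. It was -1.01 (SE 0.80) for miR-194a, 0.83 (SE 0.64) for miR-194b*, -0.72 (SE 0.44) for miR-122*, -0.23 (SE 0.47) for miR-192 and 0.74 (SE 1.73) for miR-122. Single libraries set some of these values. That of miR-194a was -0.14 without 36 hpf TCDD replicate 3 and -1.45 without 36 hpf TCDD replicate 1. That of miR-122 was 2.08 without 36 hpf TCDD replicate 1, 1.42 without 60 hpf TCDD replicate 2 and -0.34 without 60 hpf TCDD replicate 1, and that of miR-192 was 0.28 without 36 hpf TCDD replicate 3. The calls made in 1 treatment only, of miR-192 and miR-194a in DMSO and of miR-194b* in TCDD embryos, are therefore not shown to differ between treatments.

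By group mean, the order from high to low was 60 hpf TCDD, 60 hpf DMSO, 36 hpf TCDD and 36 hpf DMSO for miR-192. For miR-122 it was 60 hpf TCDD, 60 hpf DMSO, 36 hpf DMSO and 36 hpf TCDD, and its groups overlapped in each of the 4 comparisons. For miR-194a it was 60 hpf DMSO, 60 hpf TCDD, 36 hpf TCDD and 36 hpf DMSO, and for miR-194b* 60 hpf TCDD, 60 hpf DMSO, 36 hpf DMSO and 36 hpf TCDD. For miR-122* the means of the 60 hpf groups, 119.5 and 119.1 CPM, were almost equal. In these orders no neighbours of the same age passed the test.

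The arms differed in how well replicate libraries matched. The SD within groups was 0.29 on the log2 CPM scale for miR-122* and 0.36 for miR-192, beside a median of 0.61 over the 410 tested miRNAs. It was 0.60 for miR-194b* and 0.74 for miR-194a. miR-122 was at 2.05, at percentile 94.9 of the tested miRNAs. Its counts ranged from 6 to 3430 per library.

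**Figure D3:**
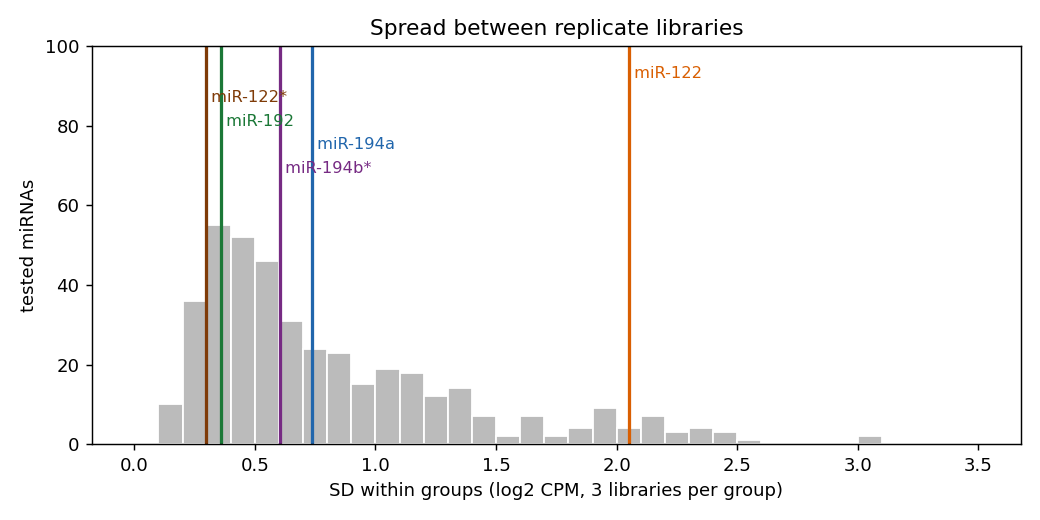
Spread of each tested miRNA between replicate libraries, as the SD of log2 CPM within groups, for 410 miRNAs (grey bars). Vertical lines mark the liver and gut arms, with miR-122* at 0.29 and miR-122 at 2.05.

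Within the miR-122 hairpin the balance of the arms varied accordingly. The star arm held 15.8%, 54.5% and 24.1% of the counts of the hairpin in DMSO replicates 1, 2 and 3 of 36 hpf, and 25.3%, 63.4% and 64.7% in the TCDD replicates. At 60 hpf it held 67.3%, 17.7% and 22.9% in the DMSO and 11.6%, 88.8% and 26.2% in the TCDD replicates. It outnumbered the plain arm in 5 of 12 libraries, spread over all 4 groups. In 60 hpf TCDD replicate 2 it had 254 counts beside 32 of the plain arm (95% Wilson interval of the share 84.6% to 91.96%), and in replicate 1 of the same group 448 beside 3430 (10.6% to 12.6%). In CPM the star arm differed little between these libraries, at 102.9 and 115.2, while the plain arm stood at 12.97 and 882. Wide ranges of this balance were not particular to miR-122. Its log2 ratio of plain to star counts, with a small constant added to each count, ranged over 5.90 across the libraries. This was rank 30 among 164 hairpins with 100 or more counts and a plain and a star feature of the same name. The median range of these hairpins was 4.03, and that of miR-194a, whose star arm was rare, was 6.63 (rank 17). The ranges include counting error, which is largest where an arm was rare, and the ranks do not separate it from other variation.

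**Figure D4:**
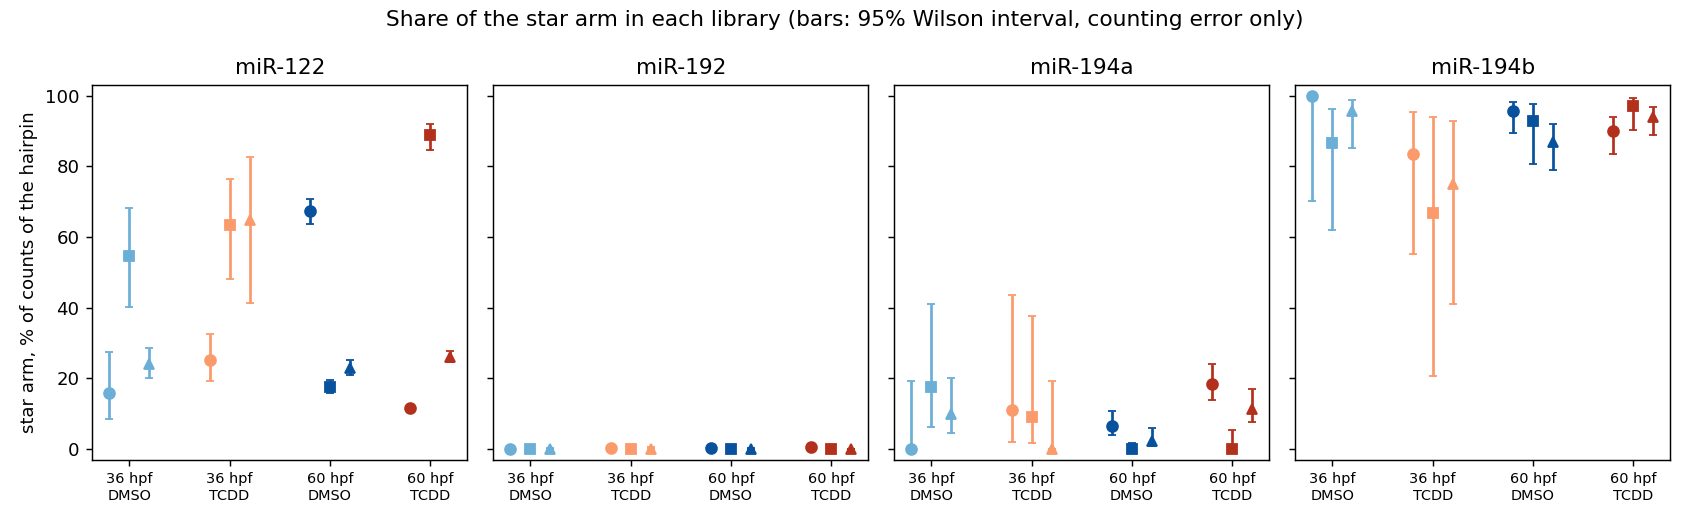
Share of the star arm among the counts of each hairpin, in percent, for every library, with 95% Wilson intervals that cover counting error only. The share of miR-122 runs from 11.6% to 88.8%, that of miR-192 stays under 1%, and that of miR-194b is at 66.7% or more.

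For miR-192 the star arm was between 0% and 0.577% of the counts of the hairpin, and 2 libraries listed none. For miR-194a it was between 0% and 18.4%, with none in 4 libraries. In miR-194b the star arm was the larger one in all 12 libraries, with 92.02% of the pooled counts, so the plain name does not mark its abundant arm. Among 164 hairpins with a plain and a star feature of the same name and 100 or more counts, 17 (10.4%) had more pooled counts on the star arm. Hairpins whose copies were merged on the plain arm but kept apart on the star arm, such as miR-133a and miR-9, were left out of this share. Where an arm was not listed, 3 counts are the limit that a count of 0 allows. In the libraries concerned this is 1.26 to 6.53 CPM of unscaled counts.

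Other tissues of the embryo were described with 7 lists for comparison, 51 tested arms in all. Between TCDD and DMSO embryos 0 of the 51 passed edgeR's test at 36 hpf (0 at an unadjusted p under 0.05, 0 by DESeq2) and 0 at 60 hpf (3 unadjusted, 1 by DESeq2). With age, averaged over both treatments, 8 of the 51 rose and 9 fell, beside 21% of all tested miRNAs that rose and 13.4% that fell. Of the pancreas arms (miR-216a, miR-216b, miR-217 and miR-375), which share the endodermal origin of liver and gut, 0 of 9 rose and 2 fell, the rare miR-216a* at -1.26 (SE 0.31) and miR-217* at -0.99 (SE 0.28). Their plain arms miR-216a (0.62, SE 0.74) and miR-217 (0.70, SE 0.87) lay above 0. Plain miR-216b (-0.55, SE 0.77) and miR-375 (-0.98, SE 0.53) lay below 0, and no plain pancreas arm passed. All 3 tested smooth muscle arms rose, with miR-143 at 1.25 (SE 0.27) and miR-145, a smooth muscle miRNA of gut and vessels, at 0.72 (SE 0.18). Of the 12 epithelial arms of the miR-200 family 0 passed the edgeR test (0 at an unadjusted p under 0.05, 0 by DESeq2; median -0.10). Of the brain arms 5 of 8 rose, by 0.83 for miR-124-2* to 2.48 for miR-9-7*. All 5 were star arms, and the plain arms miR-124 (1.39, SE 0.75) and miR-9 (2.25, SE 0.92) did not pass. Arms of muscle (3 of 9), erythrocytes (1 of 4) and epidermis (3 of 6) fell and none of these lists had an arm that rose. The muscle and erythrocyte arms that fell were all star arms, and no plain arm of either list passed. Plain muscle values lay above 0, from 0.15 for miR-206 to 0.72 for miR-1, with miR-133a at 0.17. Of the plain erythrocyte arms, miR-144 was at 0.34 and miR-451 at -0.25. The epidermis arms that fell included the plain arm miR-203a, at -0.54. The lowest value was that of miR-451*, an erythrocyte arm, at -2.24 (SE 0.41). The median over all tested miRNAs was 0.12.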

How the data were processed

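Small RNA of whole zebrafish embryos was prepared with a small RNA expression kit and read on a SOLiD V3 system, per the labels' protocols. The authors deposited a table of raw counts for each library, per the file headers, and features a table does not list were set to 0. The submitters' processing notes name edgeR alone. No source used here names the aligner, genome build or miRNA release, and arm sequences were not used here. Rows with Ensembl identifiers (1.20% to 5.35% of counts) were left out of library sizes and tests. Their share was higher in every library of 36 hpf (2.235% to 5.35%) than in those of 60 hpf (1.204% to 1.646%). Whether this difference bears on the comparisons of age was not tested. Copies of a hairpin with at least 80% of the counts of the most abundant copy were counted once, which left 464 of 699 miRNA rows. The liver and gut hairpins have no copies.

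Counts were tested with edgeR 4.0.16 (R 4.3.3, limma 3.58.1): filterByExpr (minimum count 10, total 15), TMM factors, 4 group means, robust glmQLFit and glmQLFTest, with Benjamini-Hochberg adjustment over 410 miRNAs and a call at adjusted p under 0.05. SE is the log2 fold change over the square root of F. DESeq2 1.42.0 was an alternative. Scripts were tested on simulated data. Named miRNAs were both arms of every member, the 3 miRNAs of nearest profile, and, of the comparison lists, called arms or examples. The members and lists were chosen with earlier results of these data known. Added after the data were seen were the contrast averaged over treatments, the ratio tests, the loss of both TCDD libraries of one number, and the block within TCDD libraries. Deviations of same-numbered libraries correlated weakly or negatively between DMSO and TCDD libraries of an age and between the ages of DMSO embryos (-0.23 to 0.134). The labels do not say whether these were paired, and such correlations cannot show that they were not. In TCDD embryos same-numbered libraries deviated together across the ages (0.241, 0.252 and 0.402). This pairing was seen in the data and is not in the labels. The main fit and the ratio tests treated all libraries as unpaired. Same-numbered libraries were joined only in the alternative fits with a replicate block.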

Additional observations from a re-analysis of the deposited data

How the results depend on the processing

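None of the 5 tested liver and gut arms was called between TCDD and DMSO embryos, or in the difference between ages, under any alternative run. All 5 kept a positive value in every comparison of age. Depth limits all arms but miR-192 at 36 hpf, where single libraries held as few as 6 counts of miR-122, 9 of miR-122*, 8 of miR-194a and 2 of miR-194b*. The untested arms miR-192*, miR-194a* and miR-194b were rare, with means of 3.15, 2.20 and 1.93 CPM. Single libraries of 60 hpf also held as few as 1, 0 and 2 counts of these arms. Wilson intervals and floors cover counting error only, while intervals of 2 SE also include the spread between libraries. Where values below turned or moved, the cause was not tested.

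Signs turned for some effects whose interval of 2 SE held 0 (log2 difference, TCDD minus DMSO). Not all of these were near 0. In the main fit miR-122 was at 0.41 (SE 1.21) at 60 hpf and at 0.74 (SE 1.73) for the difference between ages. At 36 hpf, without both TCDD libraries numbered 3, miR-122 was at 0.0756, miR-192 at -0.0907 and miR-194a at -0.67. With the replicate block within TCDD libraries miR-122 was at 1.11 and miR-194a at -0.119. Leaving out 1 library gave -1.66 to 0.05 for miR-122, -0.129 to 0.52 for miR-192 and -0.685 to 0.627 for miR-194a. At 60 hpf miR-122* was at 0.0407 with RLE scaling, 0.304 with total counts, 0.0385 with no filter, 0.115 with the stricter filter, 0.0438 by DESeq2, 0.0654 with copies summed and 0.117 without both TCDD libraries numbered 2. With the replicate block over all libraries miR-122 was at -0.671. miR-192 was at -0.15 with the block within TCDD libraries, and at -0.022 once both TCDD libraries numbered 3 were left out. Leaving out 1 library gave -0.666 to 0.996 for miR-122, -0.127 to 0.117 for miR-122* and -0.0184 to 0.265 for miR-192. The difference between ages was 0.113 for miR-192 with total counts, 0.0687 without both TCDD libraries numbered 3, and -0.254 for miR-122 with the replicate block. Leaving out 1 library gave -0.343 to 2.08 for miR-122 and -0.38 to 0.278 for miR-192.

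Counts of calls moved too. For TCDD at 60 hpf 1 miRNA was called, 10 by DESeq2, 2 with the replicate block, 0 without both TCDD libraries numbered 2 or numbered 3 or with the block within TCDD libraries, and 0 to 1 without 1 library. For the difference 0 were called, 6 by DESeq2 and 0 to 2 without 1 library. For age in DMSO embryos 75 were called, 120 by DESeq2 and 53 to 63 without 1 library. Of the liver and gut arms 3 were called, 1 without both TCDD libraries numbered 2 and 1 to 2 without 1 library. For age in TCDD embryos 88 were called, 136 by DESeq2, 37 without both TCDD libraries numbered 2 and 58 to 82 without 1 library. Of the liver and gut arms 2 were called, 4 by DESeq2, 1 without both TCDD libraries numbered 2 and 1 to 3 without 1 library. Averaged over treatments, 3 to 5 of these 5 arms were called without 1 library. The replicate block over all libraries left 2 of the 3 liver and gut calls in DMSO embryos, ending that of miR-194a (adjusted p by edgeR = 0.0806), and 5 of 12 same-numbered pairs correlated best with their own number.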

Other observations

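The miRNAs outside these hairpins whose profile over the 12 libraries was most like a member's were found by the root mean square difference of centred log2 CPM, among 366 tested miRNAs of 10 CPM or more. The points share libraries and their scaling, so likeness is a description. miR-192 was nearest to miR-7a-1* (0.252), miR-218a-1* (0.294) and miR-181b-2* (0.358), where its own profile had a root mean square of 0.661. miR-122* was nearest to miR-183* (0.362), miR-9-1* (0.380) and miR-135c (0.382), and miR-194a to miR-7a-3 (0.536), miR-135c (0.599) and miR-125b (0.635). The star arm of miR-194b was nearest to miR-187 (0.506), miR-2191 (0.514) and miR-125b (0.524). miR-122 had no close neighbour, with miR-460 and miR-181a-1* at 1.49 and miR-124 at 1.51 beside its own 2.04.

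The rare arms miR-192* and miR-194a*, of neighbouring hairpins, had their highest levels in the same library. In 60 hpf TCDD replicate 1 they held 50 and 42 counts (12.9 and 10.8 CPM), in 60 hpf DMSO replicate 1 they held 32 and 14, and in replicate 2 of the same groups they held 4 and 0 (TCDD) and 1 and 0 (DMSO). In replicate 3 they held 10 and 20 (TCDD) and 13 and 4 (DMSO), so the order of the arms turned between these libraries. The plain arm miR-192 was lower in these replicates 1 (2193 and 2216 CPM) than in replicates 2 (2793 and 2580 CPM), while miR-194a was lower in replicate 1 in DMSO and higher in TCDD embryos.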
